A study of Mus musculus with 55 samples.

Results

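The genes described here were 10 markers of Kupffer cells, the macrophages that live inside the blood sinusoids of the liver. They were picked by symbol (Clec4f, Cd5l, Marco, Vsig4, C1qa, C1qb, C1qc, Csf1r, Timd4 and Cd68), and all 10 were found among the 37620 genes quantified. Their RNA was measured by polyA-selected RNA-seq in whole livers of 55 untreated male mice of 29 Collaborative Cross (CC) lines, recombinant inbred lines that carry mosaics of the genomes of the classical strains C57BL/6J, NZO/HlLtJ, A/J, NOD/ShiLtJ and 129S1/SvImJ and the wild-derived strains WSB/EiJ, CAST/EiJ and PWK/PhJ. The mice were 8 to 11.9 weeks old and weighed 12.8 to 38 g, and each line was a group, with 1 mouse in 8 lines, 2 in 16 lines and 3 in 5 lines. No treatment was given, so the comparisons are between lines and between line mates, and the question is how the level of each marker, and of the markers together, varied with genetic background.

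Kupffer cells take up bacteria, immune complexes, ageing red cells and dying cells from the blood that passes through the liver. They depend on signalling through the CSF1 receptor, and they carry scavenger receptors, complement receptors and lectins that are scarce on hepatocytes. Because whole liver was sequenced, a marker level reflects the number of Kupffer cells, the RNA each cell holds and any other cells that express the gene. It is also relative to the rest of the RNA in the library. Fewer cells cannot be told apart from less RNA per cell, nor Kupffer cells from other cells that express a marker. The members fall into 4 roles. Clec4f, a C-type lectin receptor, and Timd4, a receptor for phosphatidylserine on dying cells, mark resident Kupffer cells. Marco, a scavenger receptor that binds bacteria, Cd5l, a secreted scavenger receptor family protein of macrophages, and Cd68, a glycoprotein of lysosomes, belong to uptake and digestion. C1qa, C1qb and C1qc encode the A, B and C chains of complement C1q, and Vsig4 encodes a complement receptor that binds C3b. Csf1r encodes the receptor for CSF1 and IL-34.

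In build NCBIM37 (mm9), the 3 C1q genes lay side by side on the minus strand of chromosome 4, with C1qb at 136436044 to 136442102, C1qc at 136445719 to 136448980 and C1qa at 136451832 to 136454718. Clec4f lay on chromosome 6 at 83594536 to 83606181 (minus strand), Marco on chromosome 1 at 122371115 to 122401661 (minus strand), and Cd5l on chromosome 3 at 87161803 to 87174996 (plus strand). Vsig4 lay on chromosome X at 93442542 to 93488777 (minus strand). Timd4 and Cd68 were both on chromosome 11, at 46624302 to 46657834 (plus strand) and at 69477715 to 69479655 (minus strand). Promoter windows of 8 of the 10 genes were taken from a table of RefSeq promoters of build GRCm38.p6. The 250 bases upstream of the start are shown for 3 of them: Clec4f, used here as the index of Kupffer cell RNA, C1qb, which departed from its partner chains in line IL-1061, and Marco, which departed from the other markers in many lines. Capitals mark the letters GAGGAA or, for the other strand, TTCCTC, the core of the PU box bound by the macrophage factor PU.1.

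Clec4f, chr6:83656117-83656366, minus strand: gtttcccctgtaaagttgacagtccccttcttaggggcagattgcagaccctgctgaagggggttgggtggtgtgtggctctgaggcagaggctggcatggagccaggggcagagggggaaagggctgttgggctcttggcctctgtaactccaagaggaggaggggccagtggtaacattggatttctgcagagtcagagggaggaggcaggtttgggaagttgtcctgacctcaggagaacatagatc
C1qb, chr4:136886201-136886450, minus strand: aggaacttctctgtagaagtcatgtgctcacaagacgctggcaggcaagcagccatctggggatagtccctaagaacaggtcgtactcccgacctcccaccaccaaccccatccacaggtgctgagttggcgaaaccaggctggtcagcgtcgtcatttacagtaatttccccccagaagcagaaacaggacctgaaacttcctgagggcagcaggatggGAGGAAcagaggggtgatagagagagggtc
Marco, chr1:120505025-120505274, minus strand: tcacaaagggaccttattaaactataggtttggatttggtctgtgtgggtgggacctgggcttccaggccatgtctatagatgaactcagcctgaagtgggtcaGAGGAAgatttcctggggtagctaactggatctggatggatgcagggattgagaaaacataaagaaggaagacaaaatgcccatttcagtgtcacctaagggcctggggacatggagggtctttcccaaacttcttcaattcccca

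The PU box letters were present upstream of 6 of the 8 genes (Cd5l, Marco, Vsig4, C1qb, C1qc and Cd68), and upstream of 23.3% of the 32851 promoters in the table. In C1qb the match started at position -30 and in Marco at position -146, counted from the first base of the gene. Clec4f and Timd4 held no match in this window. The E box letters CACGTG, which read the same on both strands, were found in none of the 8 windows and in 6.02% of all promoters. The matches describe the windows of the reference genome and were not tested for function.

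Depth, as summed expected counts, ran from 20542671 to 33953036 per mouse with a median of 27700357. Hepatocyte genes summed to 25939 to 67773 FPKM (fragments scaled to transcript length and to sequencing depth), so hepatocyte RNA was abundant in every library. Comparing all expressed genes, 41 of the 47 mice with a line mate were closest to a mate. Of the 6 that were closest to a mouse of another line, 5 were the mice of IL-1052 and IL-2750, whose libraries were intermixed, and calls that end without these lines are named. Mouse 2 of IL-2156 stood apart in the markers. It was singled out after its values were seen: it was among the 5 highest of the 55 mice for all 10 genes and the highest for 7, and its part in the line means, calls and correlations is given beside them.

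**Figure D1:**
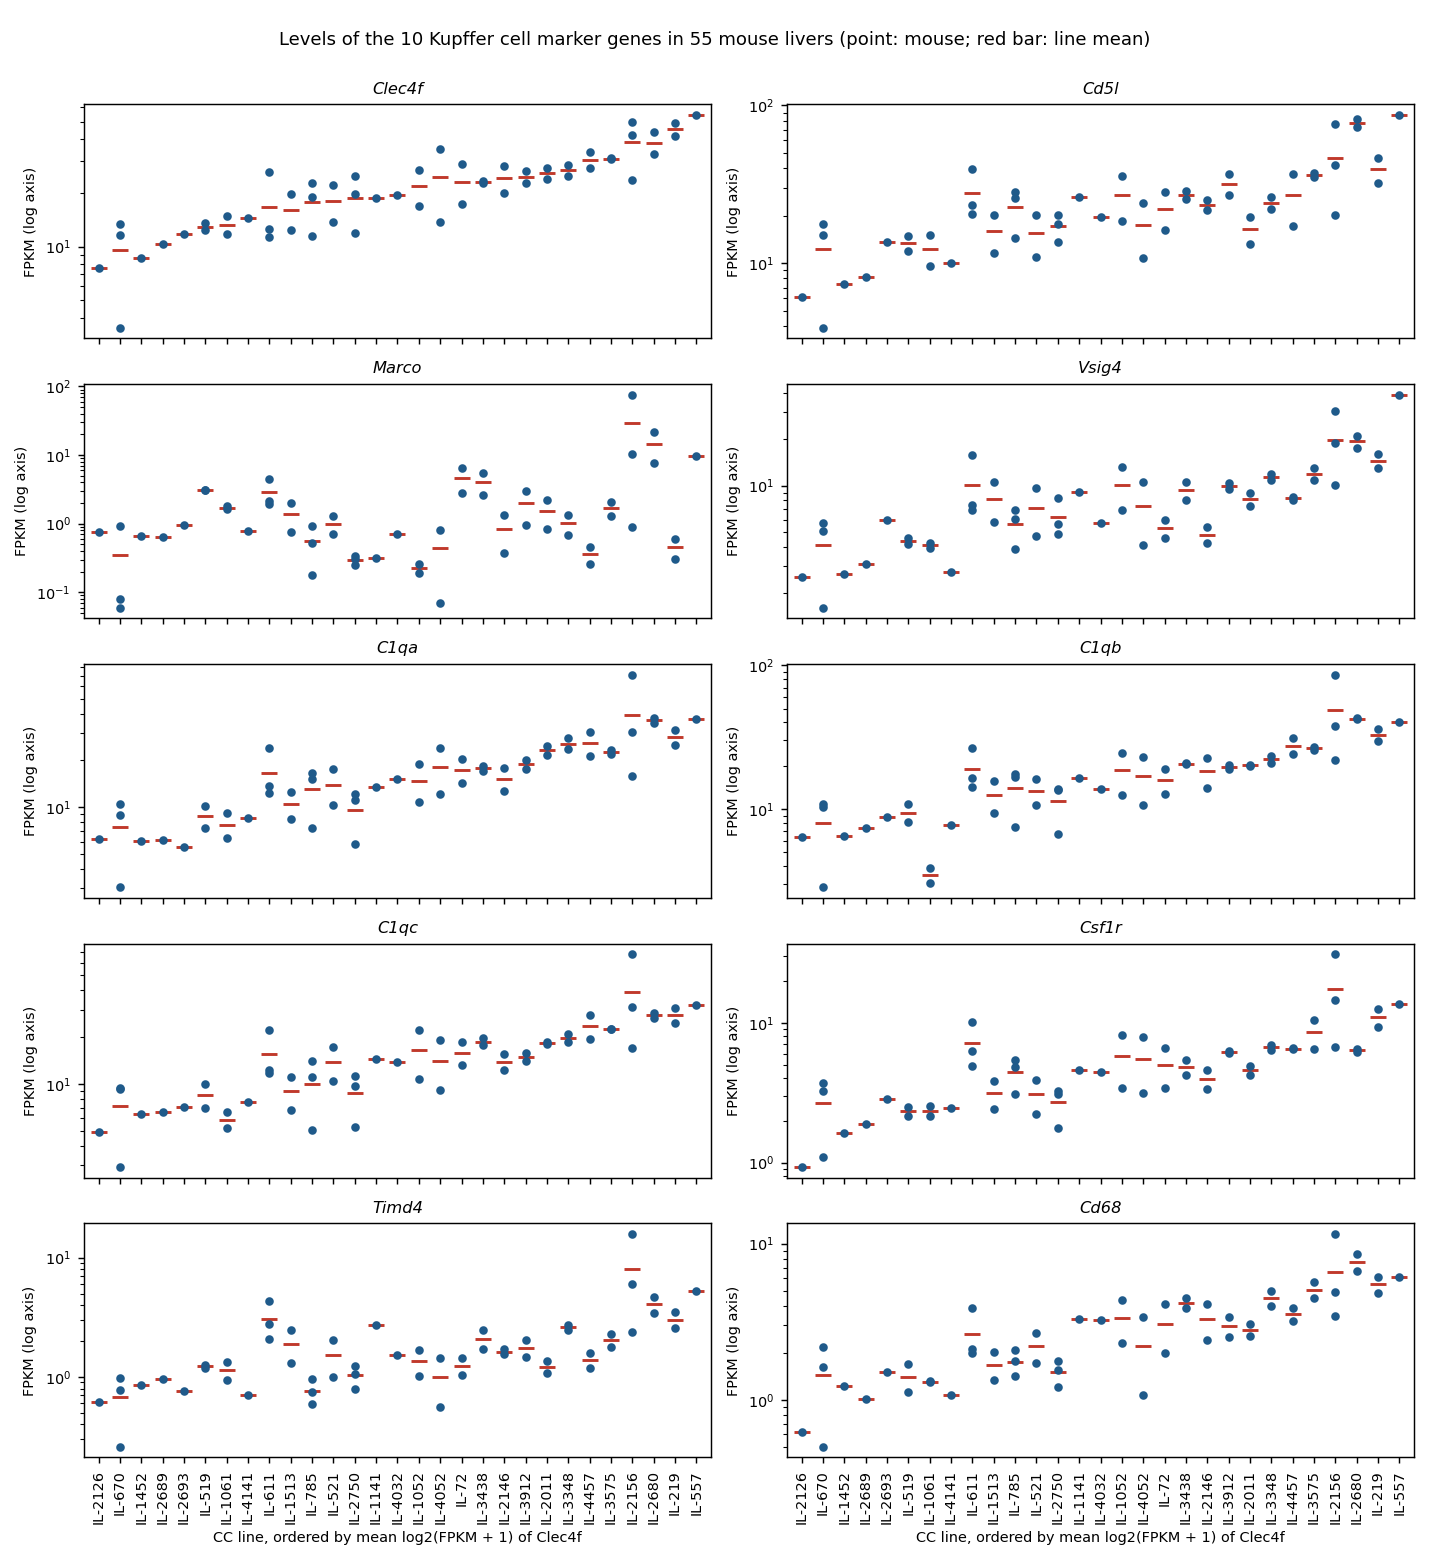
FPKM on a log axis of each of the 10 marker genes in 55 livers, with a point per mouse, a red bar for each line mean, and lines in the same order in every panel, by the mean log2(FPKM + 1) of Clec4f. Marco covers the widest range, from 0.06 to 75.4 FPKM, and follows the order of Clec4f least (rho 0.33 over line means).

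Clec4f ran from 3.51 to 54.4 FPKM over the 55 mice, with a median of 22.0. The highest line was IL-557 (54.4, 1 mouse), followed by IL-219 with 49.2 and 41.4 FPKM in its mice, and the lowest was IL-2126 (7.57, 1 mouse). Among lines with at least 2 mice the lowest was IL-670, with 11.7, 3.51 and 13.4 FPKM. Line means thus spanned 7.18-fold. The FPKM of Clec4f also depends on how fragments were assigned to its isoforms, whose shares are given below. The part of isoform assignment in this span was not tested. Neighbours in the order of lines were close: none of the 28 gaps between successive line means of log2(FPKM + 1) was larger than the spread between line mates, a standard deviation (SD) of 0.49. Timd4 was less abundant, with a median of 1.45 FPKM and a range of 0.26 to 15.8. In the highest line, IL-2156, the 3 mice had 2.40, 15.8 and 6.03 FPKM, and the lowest line was IL-2126 at 0.62. Without mouse 2 of IL-2156, IL-557 (5.29) was the highest line for Timd4 and IL-2156 (4.22) came next. In 7 lines the mean of Timd4 lay below 1 FPKM.

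Cd5l was the member with the highest single value, 86.8 FPKM in IL-557, and its median was 20.3. Both mice of IL-2680 were high, at 81.9 and 72.8 FPKM, and IL-2126 was lowest at 6.07. The step from IL-2156 up to IL-2680 was 0.92 in log2(FPKM + 1) and was the only one of the 28 gaps for Cd5l that exceeded the SD of line mates (0.56). Cd68 had a median of 2.51 FPKM and a range of 0.50 to 11.5. Its highest line was IL-2680, at 7.65 ± 1.31 FPKM (mean ± SD, n = 2), and its lowest again IL-2126 at 0.62.

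Marco had the widest range of the 10 genes, from 0.06 to 75.4 FPKM with a median of 0.92, and the counts behind these values ran from 4 to 3837. In IL-2156 the 3 mice had 0.88, 75.4 and 10.4 FPKM, so the mean of the highest line (28.9 ± 40.6, SD, n = 3) came mostly from mouse 2. Without it the mean of IL-2156 was 5.63 FPKM, behind IL-2680 and IL-557. IL-2680 had 21.6 and 7.73 FPKM, and IL-557 had 9.58. No other line mean was above 5 FPKM, and 15 of the 29 lines had a mean below 1 FPKM. The lowest line was IL-1052, with 0.19 and 0.26 FPKM, although its Clec4f (16.9 and 26.8) was near the middle of the range. IL-2750, with which its libraries were intermixed, was also low, at 0.31, 0.25 and 0.34 FPKM.

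The 3 C1q chains had similar levels per kilobase, with medians of 15.2 FPKM for C1qa, 16.5 for C1qb and 13.96 for C1qc. All 3 were highest in IL-2156, where C1qb had 21.9, 86.1 and 38.0 FPKM. Without mouse 2, IL-2156 ranked 6 of 29 for C1qa and 4 of 29 for C1qb and C1qc, and the highest lines were IL-557 for C1qa (37.1) and C1qc (32.1) and IL-2680 for C1qb (42.6). The lowest lines were IL-2693 for C1qa (5.57), IL-1061 for C1qb (3.92 and 3.06) and IL-2126 for C1qc (4.87). For C1qb the gap between IL-1061 and the next line, IL-2126, was 0.72 in log2(FPKM + 1), against an SD of 0.53 between mates. Vsig4 ran from 1.6 to 39.1 FPKM with a median of 7.40. Its highest line, IL-557, stood 0.98 in log2(FPKM + 1) above IL-2680 (17.7 and 21.1 FPKM) against an SD of 0.46 between mates, and its lowest was IL-2126 at 2.54.

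Csf1r had a median of 4.56 FPKM and ran from 0.93 in IL-2126 to 30.8 in mouse 2 of IL-2156, whose mates had 6.68 and 14.6. Line means of Csf1r spanned 18.7-fold, and 14.6-fold without mouse 2 of IL-2156, when IL-557 (13.6) was highest. IL-2126 was the lowest line for Clec4f, Cd5l, Vsig4, C1qc, Csf1r, Timd4 and Cd68, and with 1 mouse it has no replicate check.

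All 10 markers differed among the 21 lines with at least 2 mice (edgeR quasi-likelihood F test over 47 mice, Benjamini-Hochberg adjusted over 15285 genes). The p-values set the differences among lines against the spread between line mates. Nothing in the labels says which mates shared a litter or cage, and such sharing cannot be told apart from line. The adjusted p ran from 1.71e-06 for Marco, 6.02e-06 for Timd4 and 5.38e-05 for C1qb to 0.00259 for Clec4f. Differences among lines were the rule in this series, since 88.5% of all genes tested were called, and the count of 10 of 10 is to be read against that share. The share of the variance of log2(FPKM + 1) that lay between lines (intraclass correlation) had a median of 0.59 over the 10 genes against 0.60 over 11284 genes. It ran from 0.46 ± 0.31 (jackknife standard error (SE) over 29 lines) for Marco to 0.66 ± 0.09 for Vsig4. Without mouse 2 of IL-2156 the value for Marco was 0.64.

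Compared with the mean of the other 20 lines, a line was called higher for 22 of the 210 pairs of line and marker, and lower for 10. Over all genes these shares were 10.9% and 7.18%. Most of the calls fell in 3 lines. In IL-2156 all 10 markers were called higher, where 16.5% of all genes were. The change was largest for Marco (log2 fold change 4.53, SE 0.42, adjusted p 1.84e-09 in edgeR), followed by Timd4 (2.32, SE 0.25) and Csf1r (1.81, SE 0.24). Without mouse 2, 5 of the 10 remained called: Marco (2.28), Timd4 (1.46), Csf1r (1.18), Vsig4 (0.93) and C1qb (0.88).

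In IL-2680, 7 markers were called higher against a background of 10.5%. Marco rose by 3.47 (SE 0.53), Cd5l by 1.71 (SE 0.31), Cd68 by 1.42 (SE 0.30), C1qb by 1.27, Timd4 by 1.23, Vsig4 by 1.21 and C1qa by 1.08 on the log2 scale. Clec4f (0.75, SE 0.31), C1qc (0.84, SE 0.32) and Csf1r (0.26, SE 0.34) did not pass. Without mouse 2 of IL-2680, Marco and Cd5l remained called and the other 5 did not (adjusted p 0.06 to 0.162), and without mouse 1, 5 of the 7 remained, C1qa and Timd4 having been lost. In IL-670, 7 markers were called lower against a background of 7.18%. Timd4 fell by 1.30, C1qa by 1.16, C1qb by 1.10, Clec4f by 1.09, C1qc by 1.03, Cd68 by 0.97 and Vsig4 by 0.94. These calls rested on mouse 2 of IL-670, the lowest of the 55 mice for 9 of the 10 genes, and without it none of the 7 remained, with Clec4f at -0.68 (adjusted p 0.193). Without mouse 1 of IL-670, Vsig4 and Cd68 were lost (adjusted p 0.0561 and 0.0959), and without mouse 3, Timd4 (adjusted p 0.0513). The Cd68 call was lost in 13 of the 47 fits that left out 1 mouse of any line.

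**Figure D2:**
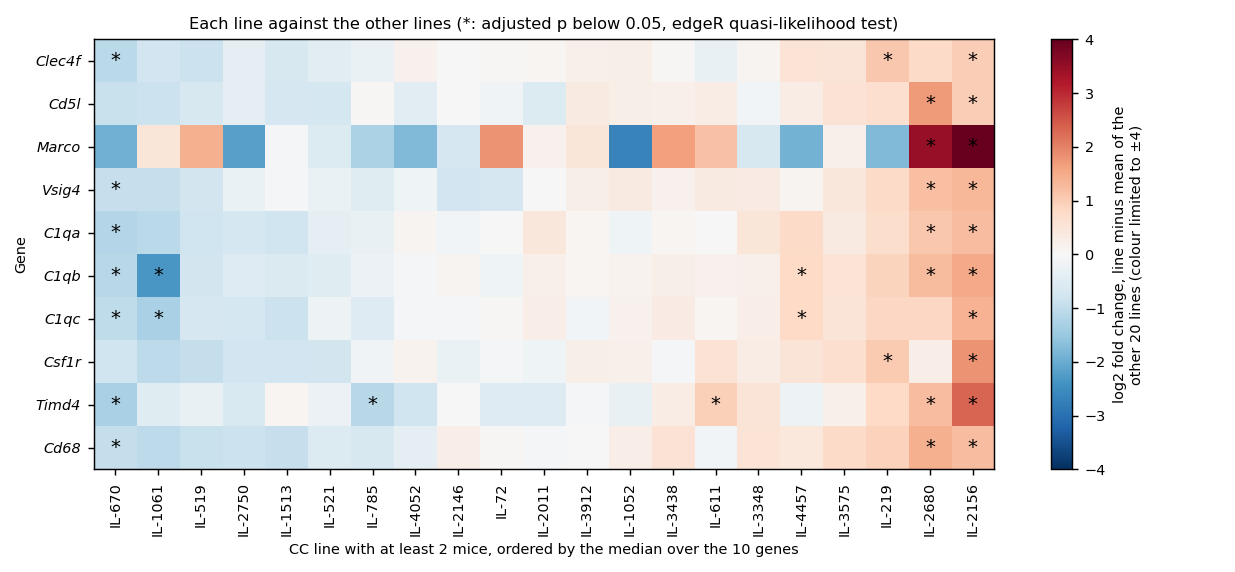
Fitted log2 fold change of each marker gene (rows) in each of the 21 lines with at least 2 mice (columns) against the mean of the other 20 lines, with a star where the adjusted p of the edgeR test is below 0.05. Lines are ordered by their median over the 10 genes, and stars mark 7 genes in IL-670 at the low end and 7 in IL-2680 and 10 in IL-2156 at the high end.

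Outside these 3 lines the calls were few. IL-219 was higher for Clec4f (1.07) and Csf1r (1.05), IL-4457 for C1qb (0.81) and C1qc (0.79), and IL-611 for Timd4 (0.95), while IL-785 was lower for Timd4 (-1.11). IL-1061 was lower for C1qb (-2.32, SE 0.46, adjusted p 0.000831) and C1qc (-1.29, SE 0.41, adjusted p 0.0343), and C1qa in that line was at -1.07 (SE 0.40, adjusted p 0.0756). Each of these calls outside the 3 lines was lost when a mouse of its own line was left out. The calls of IL-219, IL-4457 and IL-785 and that of C1qc in IL-1061 were lost without any one of the line's mice, that of Timd4 in IL-611 without mouse 2 or mouse 3 (adjusted p 0.319 and 0.0826), and that of C1qb in IL-1061 without mouse 2 (-2.20, adjusted p 0.057). The calls of IL-4457 (adjusted p 0.0457 and 0.0483) also did not pass in DESeq2, nor without IL-1052 and IL-2750 (adjusted p 0.0577 and 0.0618).

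Mouse 2 of IL-2156 differed from its mates in more than the 10 markers. The summed FPKM of 20 other Kupffer cell and macrophage genes was 619 in this mouse, the highest of all 55, against 129 and 236 in its mates and a median of 123. A large part of the 619 came from Lyz2, a gene of macrophages and neutrophils (highest value over the 55 mice 314 FPKM, median 17.5). The 6 neutrophil genes summed to 142 FPKM, against 5.02 and 71.0 in mates and a median of 4.39, and the 8 monocyte genes to 28.8, against 8.31 and 19.8. The 11 sinusoidal endothelial genes, at 63.9, were near the median of 61.8. The 8 hepatocyte genes summed to 34504 FPKM, against 34402 and 25939 in mates and a median of 46422. The value of 25939, in mouse 3, was the lowest of all 55. Mouse 2 of IL-670 had 71.9 FPKM of the macrophage genes, against 96.8 and 120 in its mates, and 46.6 of the endothelial genes, against 56.2 and 84.9. The macrophage sum is weighted by Slc40a1, which had the highest median of the 20 genes (41.8 FPKM over the 55 mice). The 10 markers summed to 19.74 FPKM in mouse 2 of IL-670, against 67.16 and 74.15 in its mates. Its hepatocyte genes summed to 54128 FPKM, against 57334 and 50933 in its mates. Its depth was 32670808 expected counts, against 29315154 and 26569656 in its mates. The part of these values in the line calls was not tested.

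Across the 29 line means, the markers rose and fell together, with Marco as the exception. Of the 45 pairs of markers, the 36 without Marco had Spearman's rho from 0.75 (Clec4f with Timd4) to 0.98 (C1qb with C1qc), with a median of 0.91. The 9 pairs with Marco ran from 0.30 (Csf1r) to 0.49 (Timd4). Without mouse 2 of IL-2156 the ranges were 0.75 to 0.98 and 0.29 to 0.49. For scale, the median over all 63658686 pairs of the 11284 genes with a maximum of at least 2 FPKM was 0.07, with the 5th percentile at -0.32 and the 95th at 0.46, and 0.0959% of the pairs reached 0.75. The points share the livers and the library of each mouse. The pairs are a description, and the permutation p-values given for single pairs were not adjusted for the 45 pairs computed.

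**Figure D3:**
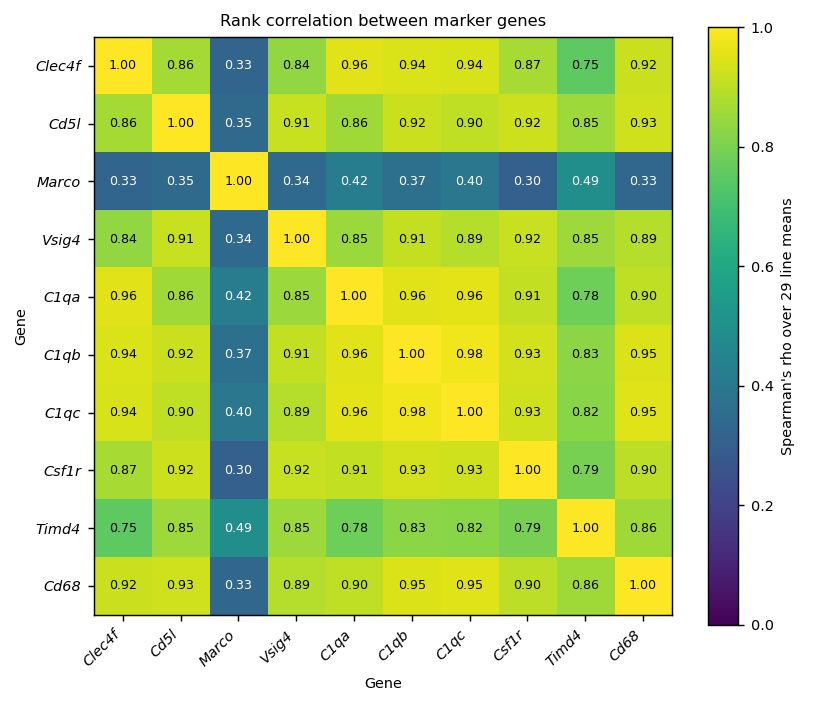
Spearman's rho between each pair of the 10 marker genes over 29 line means of log2(FPKM + 1), with the value printed in each cell. The row and column of Marco hold 0.30 to 0.49, and all other pairs hold at least 0.75.

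Clec4f, the index, was most alike to C1qa (Pearson's r 0.95, rho 0.96), C1qc (r 0.95, rho 0.94) and C1qb (r 0.92, rho 0.94). For each, the permutation p over 100000 shuffles of the lines was 1e-05, the smallest it can give, and without the 2 lines farthest from the median of Clec4f r was 0.95, 0.94 and 0.91. With Timd4, r was 0.76 and 0.69 without the 2 farthest lines. With Marco, r was 0.48 (permutation p 0.00903), rho 0.33 (permutation p 0.0821) and r 0.37 without the 2 farthest lines. The closest partner of Marco was Timd4, with r 0.70 (permutation p 7e-05), rho 0.49 (permutation p 0.00693) and r 0.51 without the 2 farthest lines.

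In a limma fit of every gene on Clec4f over the 29 line means, 8 of the 9 other markers had a positive slope past the threshold, against 3.13% of 11283 genes, and the count was 8 of 9 without mouse 2 of IL-2156 as well. Slopes are in log2(FPKM + 1) per log2(FPKM + 1). They were 1.15 (SE 0.10) for Cd5l, 1.12 (SE 0.09) for C1qb, 1.08 (SE 0.07) for C1qa, 1.05 (SE 0.11) for Vsig4, 1.02 (SE 0.07) for C1qc, 0.97 (SE 0.08) for Csf1r, 0.85 (SE 0.07) for Cd68 and 0.64 (SE 0.10) for Timd4. Marco had 0.69 (SE 0.24, adjusted p 0.128). The median slope was 1.02 for the 9 markers and 0.04 for all genes. When only the 21 lines with at least 2 mice were used, Timd4 no longer passed (adjusted p 0.0566), and without IL-219 Marco passed (adjusted p 0.0427).

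With each other marker as the index, 9 of 9 had a positive slope on Cd5l (2.7% of all genes), Vsig4 (4.36%), Timd4 (2.6%) and Cd68 (3.4%). The count was 8 of 9 on C1qa (3.25%), C1qb (2.77%), C1qc (3.33%) and Csf1r (3.78%), where Marco did not pass. The slope of Marco was close to the threshold on several indexes. With a pseudocount of 0.1 it did not pass on Cd5l (adjusted p 0.066), Vsig4 (0.0646) or Cd68 (0.124). On Cd68 it also did not pass with no filter on low values (0.0552), without IL-1052 and IL-2750 (0.0526) or without mouse 2 of IL-2156 (0.0891). On the log2(TPM + 1) scale it passed on C1qa (0.0374) and C1qc (0.0438). On Marco only Cd5l (slope 0.52, SE 0.13, adjusted p 0.0421) and Timd4 (0.40, SE 0.08, adjusted p 0.0118) passed, against 0.824% of all genes. Without mouse 2 of IL-2156 neither passed on Marco (adjusted p 0.105 and 0.0787).

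Line mates differed in the same way. With line as a factor, 8 of the 9 other markers had a positive slope on Clec4f among the 47 mice (limma), against 3.24% of all genes. The slope was 1.06 (SE 0.09) for Cd5l, 0.99 (SE 0.08) for C1qa and 0.61 (SE 0.11) for Timd4, and for Marco it was 0.83 (SE 0.30, adjusted p 0.152). With a pseudocount of 0.1 Marco passed (slope 1.31, adjusted p 0.0363). The correlation of the deviations from the line mean ran from 0.72 to 0.99 over the 36 pairs without Marco, and from 0.47 to 0.87 over the 9 pairs with it. Marco and Timd4 had the 0.87. Without mouse 2 of IL-2156 the ranges were 0.74 to 0.98 and 0.42 to 0.73, with Marco and Timd4 at 0.73. The deviations of 47 mice in 21 lines hold 26 free values, and these correlations are a description.

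Given the level of Clec4f, the 9 others differed among the 21 lines (limma F test, adjusted p from 3.76e-06 for C1qb to 0.00272 for C1qa), as did 88.3% of all genes, so this count is near the background. Ratios of markers within a mouse were compared next, and the line with the most divergent ratio of C1qb to C1qa was singled out after the values were seen. The ratio was 0.43 and 0.49 in the 2 mice of IL-1061 and at least 0.82 in each of the other 53, with a median of 1.11 over the 55. The ratio of C1qb to C1qc was likewise lowest in IL-1061, at 0.59 in both mice against 0.94 or more elsewhere, whereas C1qc to C1qa there was 0.73 and 0.82, within the range of the other lines. The highest ratio of C1qb to C1qa was 1.58, in the mouse of IL-2693. The intraclass correlation of the log2 ratio was 0.91 ± 0.13 for C1qb to C1qa, compared with 0.64 for the level of C1qb itself. Whether C1qb reads of IL-1061 aligned less well to the reference was not tested.

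Ratios to Clec4f also varied among lines. Cd5l to Clec4f was lowest in IL-2011 (line mean 0.63) and highest in IL-2680 (2.05). Vsig4 to Clec4f was lowest in IL-4141 (0.19, 1 mouse) and highest in IL-557 (0.72, 1 mouse). Csf1r to Clec4f ran from 0.12 in IL-2126 to 0.44 in IL-611, and Timd4 to Clec4f from 0.04 in IL-4052 to 0.19 in IL-611. Marco to Clec4f covered the widest range, from 0.0051 in mouse 1 of IL-4052 to 1.51 in mouse 2 of IL-2156, with a median of 0.05. The Clec4f level in these ratios depends on how fragments were assigned to its isoforms. The isoform ENSMUST00000014686 held 55.4% of the gene's abundance in IL-2126, on 208.84 of its 247 expected counts. It held 65.5% in IL-4141 and 81.3% in IL-557. The part of isoform assignment in the ratios was not tested.

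**Figure D4:**
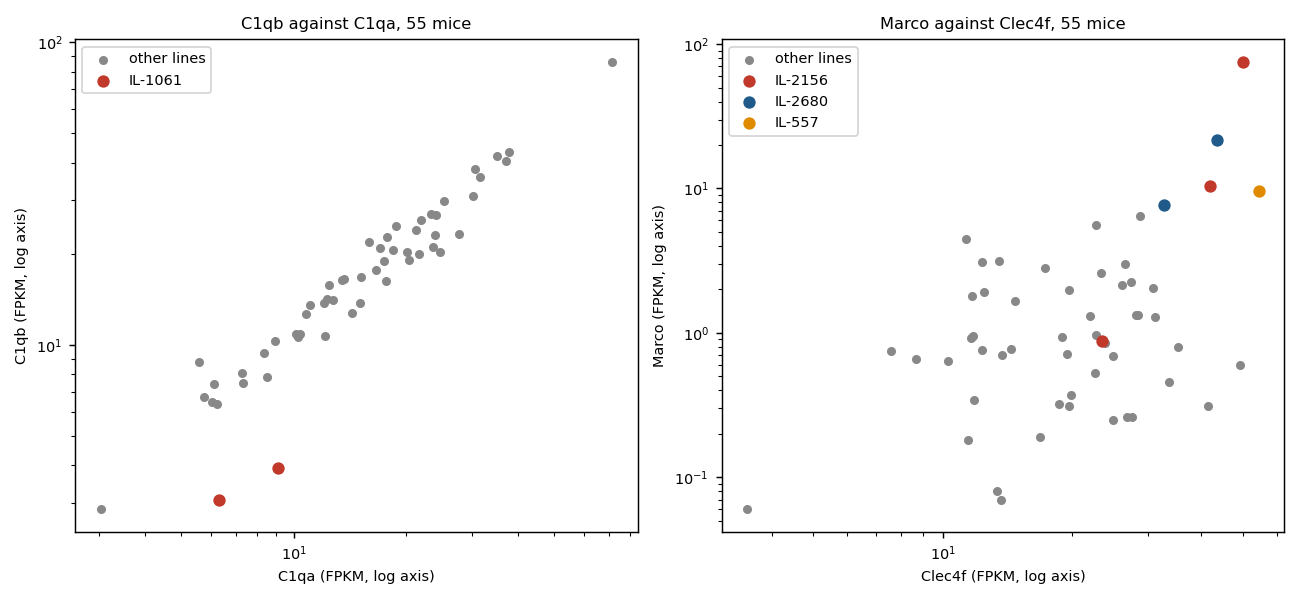
Left, C1qb against C1qa, and right, Marco against Clec4f, in FPKM on log axes with a point for each of 55 mice. The 2 mice of IL-1061 lie below the band of the others on the left, and on the right the mice of IL-2680, IL-557 and 2 of the 3 of IL-2156 lie above 7 FPKM of Marco while no other mouse reaches 7.

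Other genes followed the markers closely over the line means. By the median rho with the 10 markers, the 10 highest of all other genes included Tyrobp (0.94), an adaptor of activating receptors, Ctss (0.93), a lysosomal protease, P2ry13 (0.91), a receptor for ADP, Cybb (0.91) and Cyba (0.91), the chains of the phagocyte oxidase, Ly9 (0.91), Pld4 (0.91), Axl (0.90), a receptor for dying cells, and Rac2 (0.90), a GTPase of blood cells. Their lowest rho, with Marco in view, was between 0.30 and 0.42. Tyrobp ran from 2.25 to 40.0 FPKM and Ctss from 2.55 to 60.3.

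Gene lists for the neighbours of the markers in their pathways and for other liver cell types were fitted on Clec4f in the same way. Of 20 other Kupffer cell and macrophage genes, 17 had a positive slope, among them Lyz2 (1.26, SE 0.17), the lysozyme of macrophages and neutrophils, Ctss (1.13, SE 0.08) and Tyrobp (0.94, SE 0.07). Slc40a1, the iron exporter (0.16, SE 0.11), Cd14, an endotoxin receptor (0.19, SE 0.13), and Lyz1 did not pass. Among line mates the count was again 17, with Cd14 passing (0.63, adjusted p 0.0375) and Cd163 not (0.37, adjusted p 0.0917). Of 7 lineage transcription factors, Spi1, which encodes PU.1 (0.55, SE 0.07), and Spic, a related factor of red pulp and iron-handling macrophages (0.27, SE 0.05), passed, and the others, such as Id3 (0.32, SE 0.20) and Irf8 (0.18, SE 0.09), did not. Among line mates 3 of the 7 passed, Irf8 among them (0.43, adjusted p 0.00295). Of the CSF1R ligands, Csf1 had a slope of 0.20 (SE 0.08, adjusted p 0.216) across lines and 0.37 among line mates (adjusted p 0.00325), and Il34 was below the minimum level. None of the 5 partners and inhibitor of C1 passed, including C1ra (0.07, SE 0.06), C1s (0.04, SE 0.07) and Serping1 (0.20, SE 0.08), which liver parenchyma also makes.

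Of 7 receptors and bridging proteins for apoptotic cells, 6 were tested, and Axl (0.59, SE 0.05) and Stab2 (0.36, SE 0.09) passed. Gas6, a ligand of Axl and Mertk, had 0.37 (SE 0.14, adjusted p 0.175) and Mertk 0.19 (SE 0.08, adjusted p 0.239). Of 8 monocyte genes 3 were tested and Plac8 (0.57, SE 0.10) and Ly6c2 (0.40, SE 0.10) passed. Ccr2, the receptor that brings monocytes into tissue, had at most 1.92 FPKM in any mouse. None of 3 bile duct genes tested, 2 lymphocyte genes, 5 neutrophil genes and 8 hepatocyte genes passed, and the 6 dendritic cell genes were below the minimum level. Among line mates none of them passed either. There the neutrophil genes S100a8 and S100a9 had slopes of 1.02 (adjusted p 0.0863) and 1.10 (adjusted p 0.0739). The other neutrophil genes tested had 0.33 to 0.45. Over all genes only 2 (0.0177%) had a negative slope past the threshold.

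The 11 sinusoidal endothelial genes, from the cells that Kupffer cells adhere to, gave different counts in the 2 fits. Across lines 2 passed, Cdh5 (0.36, SE 0.08) and Gpr182 (0.38, SE 0.11), while among line mates 10 passed, all but Lyve1. Clec4g had 0.42 (SE 0.15, adjusted p 0.143) across lines and 0.59 (adjusted p 0.00139) among mates. The difference between the 2 fits was not tested. With the mean of the endothelial genes added to the model, 8 of 9 markers still passed across lines. Among mates 6 of 9 did, where Timd4 (adjusted p 0.216) and Cd68 (adjusted p 0.0765) no longer did. The slope of Timd4 among mates was 0.61 with and without the endothelial mean, and that of Cd68 was 0.58 with it and 0.68 without it. Of 9 stellate cell genes tested, Dcn passed across lines (0.69, SE 0.18).

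**Figure D5:**
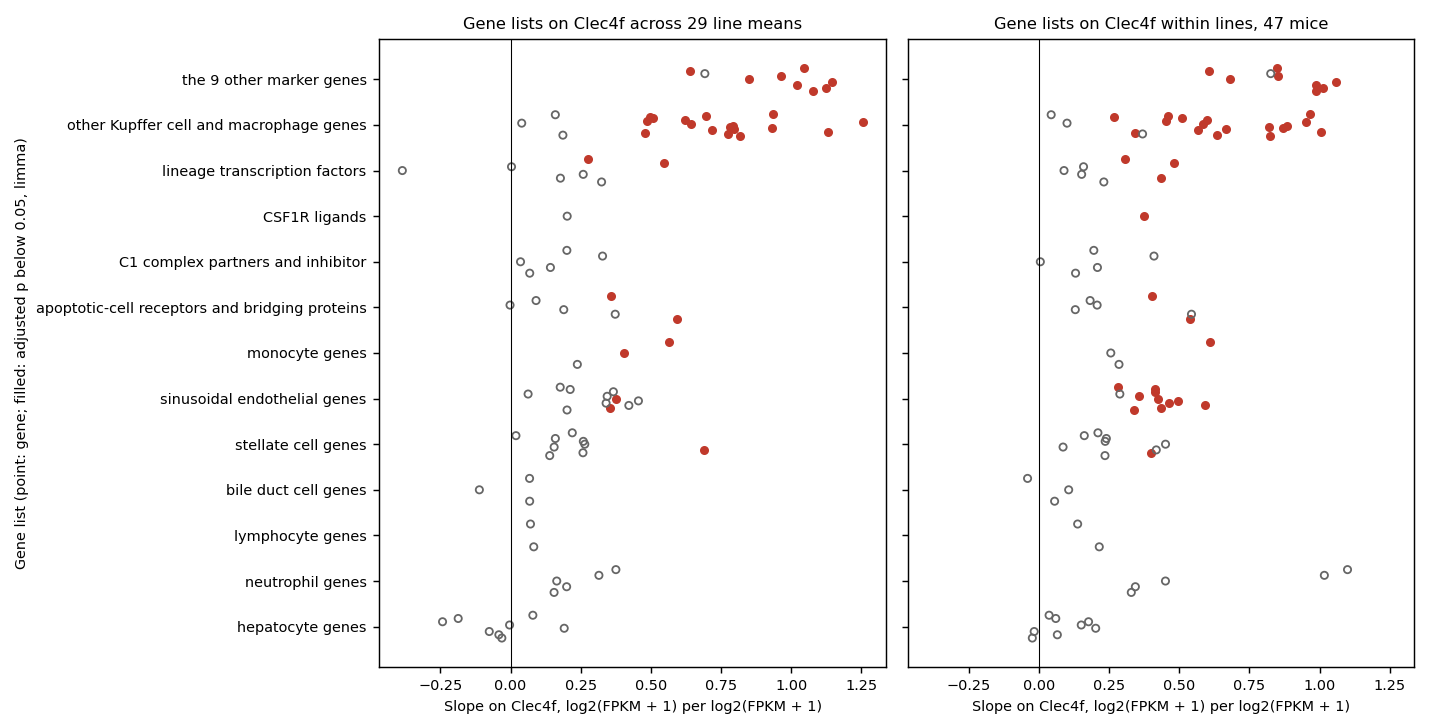
Slopes on Clec4f of the 9 other marker genes and of the tested genes of each list, in log2(FPKM + 1) per log2(FPKM + 1), left across 29 line means and right among the 47 mice with line as a factor, filled where the adjusted p of limma is below 0.05. The marker and macrophage lists lie mostly above 0.5, hepatocyte genes lie on both sides of 0 on the left, and 2 endothelial genes are filled on the left against 10 on the right.

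None of the 10 markers had a slope on body weight past the threshold, nor did any of the 11284 genes (0%). At an unadjusted p below 0.05 there were 5 of the 10 markers and 906 of the 11284 genes. The markers rose and fell together across lines, so their slopes are not independent of each other. The largest slope was that of C1qb, 0.08 in log2(FPKM + 1) per g (SE 0.03, adjusted p 0.536, limma), and all 10 slopes were positive. For age the count was again 0 of 10 and 0% of all genes, and at an unadjusted p below 0.05 there were 0 markers and 659 genes. The largest was Marco at 0.28 per week (SE 0.17, adjusted p 0.872).

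For 4 markers a share of isoforms could be compared, after the isoform-ratio trait of the study, and 2 of them differed among lines, against 33.6% of 6650 genes (limma F test on rank-based scores over the 21 lines with at least 2 mice). The share of the Clec4f isoform ENSMUST00000014686 differed among these lines (adjusted p 0.0375), whose means ran from 65.1% ± 11.5 (SD, n = 2) in IL-519 to 95.8% ± 5.91 (SD, n = 2) in IL-1052. In lines with 1 mouse, which were not in the test, it reached 55.4% in IL-2126 and 100% in IL-1141. In IL-2750 it was 65.5%, 62.5% and 68.0% in the 3 mice. Without the intermixed lines IL-1052 and IL-2750 the adjusted p was 0.12. The share of the Csf1r isoform ENSMUST00000115268 had a median of 14.2% over all mice and also differed (adjusted p 0.0309), with line means from 2.34% ± 3.31 (SD, n = 2) in IL-3575 to 52.2% ± 8.92 (SD, n = 2) in IL-2146. In IL-2126, with 1 mouse and outside the test, it was 100% on 88.7 expected counts. In IL-670 it was 36.0%, 97.3% and 3.92%, on 387, 164 and 375 expected counts of the gene. Mates could thus differ as widely as lines, though the highest share rested on the lowest count. On percentages without scores the Csf1r call was lost (adjusted p 0.123). Vsig4 (adjusted p 0.396) and Cd68 (adjusted p 0.751) did not pass, and the other 6 genes had a single isoform or too few levels of the share.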

How the data were processed

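Per the study's methods, the authors sequenced stranded polyA libraries as paired reads of 50 bases, aligned them with Bowtie 2 to mm9 transcripts (Ensembl annotation) and quantified genes and isoforms with RSEM 1.2.18. The deposited gene values are expected counts, TPM and FPKM, and the deposited isoform values include each isoform's percent of its gene (a share of abundance, not of fragments) and expected counts. Reads of founder strains that differ from the reference may align less well, and this was not tested. Symbols were matched for 37205 of 37620 gene identifiers. The extract of each mouse gave 1 library, and replicates are line mates, numbered in accession order. The labels named no batch.

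Expected counts were rounded and fitted with edgeR 4.0.16 (TMM, filterByExpr, quasi-likelihood F test) in R 4.3.3. FPKM were fitted as log2(FPKM + 1) with limma 3.58.1 over genes with a maximum of at least 2 FPKM, on line means or, within lines, on mice. Such slopes understate changes of low genes. Isoform shares were ranked into van der Waerden scores, 1 isoform per gene with at least 12 levels, after the study's methods. P-values were adjusted by Benjamini-Hochberg over all genes tested, with a threshold of 0.05. Both kinds of fit were tested on simulated data. Alternatives included DESeq2 1.42.0, RLE factors, other pseudocounts, TPM, filters, and leaving out mice or lines. When 1 mouse was left out, the dispersion trend of the fit with all mice was kept. Lines were named where at least 5 of the 10 markers were called in 1 direction, along with each marker's highest and lowest line and the 10 genes most like the markers. The members and lists were chosen with earlier results of these data known. C1qa had no promoter entry, the promoter of Csf1r was left out, and protein sequences are not analysed here. Founder genotypes are not used here. Some genes that the naming rule or a list includes are not reported here.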

Additional observations from a re-analysis of the deposited data

How the results depend on the processing

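All 10 markers differed among lines under RLE factors, no filter on low counts, DESeq2, van der Waerden scores, without IL-1052 and IL-2750, and with each mouse left out. Pairs of line and marker called higher numbered 15 to 25 with a mouse left out and 20 to 23 under the other settings. Pairs called lower numbered 5 (without mouse 2 of IL-670) to 16 (without mouse 1 of IL-2156), 10 under 4 settings, and 20 in DESeq2, and the cause of that difference was not tested. The count of markers with a slope on Clec4f was 7 to 8 across lines, 8 to 9 with a line left out (9 without IL-219), and 6 to 9 within lines. On Marco it was 2, and 0 with a pseudocount of 0.1 or without mouse 2 of IL-2156 (an exclusion chosen after seeing the data, as were the intraclass correlation alternatives and the fits with Clec4f or, within lines, the endothelial mean as a covariate). Called isoform shares numbered 2, and 1 with percentages, without IL-1052 and IL-2750, or with at least 100 counts in every mouse, where only Clec4f could be fitted. No slope on weight or age was called under any setting. Of 32 called pairs of line and marker, DESeq2 kept 30. Counts as low as 4 (Marco) limit the precision of its low values. No paired analysis was possible because replicate numbers only name mice.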
